A study of Mus musculus with 16 samples.

Results

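The 10 marker genes of mural cells described here, of 39057 genes in the count table, were followed through cultures of mouse brain endothelial cells. They were chosen by name as markers of pericytes and vascular smooth muscle cells: Pdgfrb, Cspg4, Rgs5, Kcnj8, Notch3 and Des, which are used to recognise pericytes, and Acta2, Tagln, Myh11 and Cnn1, which belong to the contractile machinery of smooth muscle. The cells were primary cortical brain endothelial cells from human *APOE3*- or *APOE4*-targeted replacement mice aged 21 to 28 days, which express a human *APOE* isoform under the mouse *APOE* promoter. Each culture came from 1 animal and received no treatment other than 8 µg/ml puromycin during isolation. There were 8 cultures per genotype, 4 male and 4 female, and polyA RNA from each was sequenced as 1 library, with 12717847 to 18624417 counts per library.

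Mural cells wrap the vessel wall from outside. Smooth muscle cells ring arterioles and set their diameter with actin and myosin, and pericytes sit on capillaries within the basement membrane. Endothelial cells release PDGF-BB, which holds pericytes to the vessel through PDGF receptor beta, and present Notch ligands to NOTCH3 on mural cells. Pericytes leave the brain attached to its microvessels, so cultures of brain endothelial cells can start with some of them. Puromycin selects for cells that pump the drug out, as brain endothelial cells do with P-glycoprotein. Several genes of smooth muscle, Acta2 and Tagln among them, are also read in other cells that assemble stress fibres, so their transcripts alone do not name a cell.

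The markers divided into an abundant pair and a sparse remainder. Levels between genes were compared per length as RPKM, which is CPM (counts scaled to the library total after TMM normalization) divided by kilobases of exon. Tagln had a median of 80.9 over the 16 libraries and Acta2 36.2. Pdgfrb followed with a median RPKM of 0.998, Cspg4 with 0.553, Des with 0.485, Cnn1 with 0.267, Myh11 with 0.187 and Notch3 with 0.181. The median RPKM of Rgs5 was 0.0645, and that of Kcnj8 was 0. Acta2 was 36.2-fold above Pdgfrb by median RPKM, the widest step among the markers with a median above 0.

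Tagln exceeded Acta2 and Acta2 exceeded Pdgfrb within each of the 16 libraries. Further down the order held in fewer of them: Pdgfrb was above Cspg4 in 13 libraries, Cspg4 above Des in 11 and Myh11 above Notch3 in 9. Tagln and Acta2 together made up 96.7% to 98.7% of the summed RPKM of the markers. The sum over the list therefore followed these 2 genes.

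**Figure D1:**
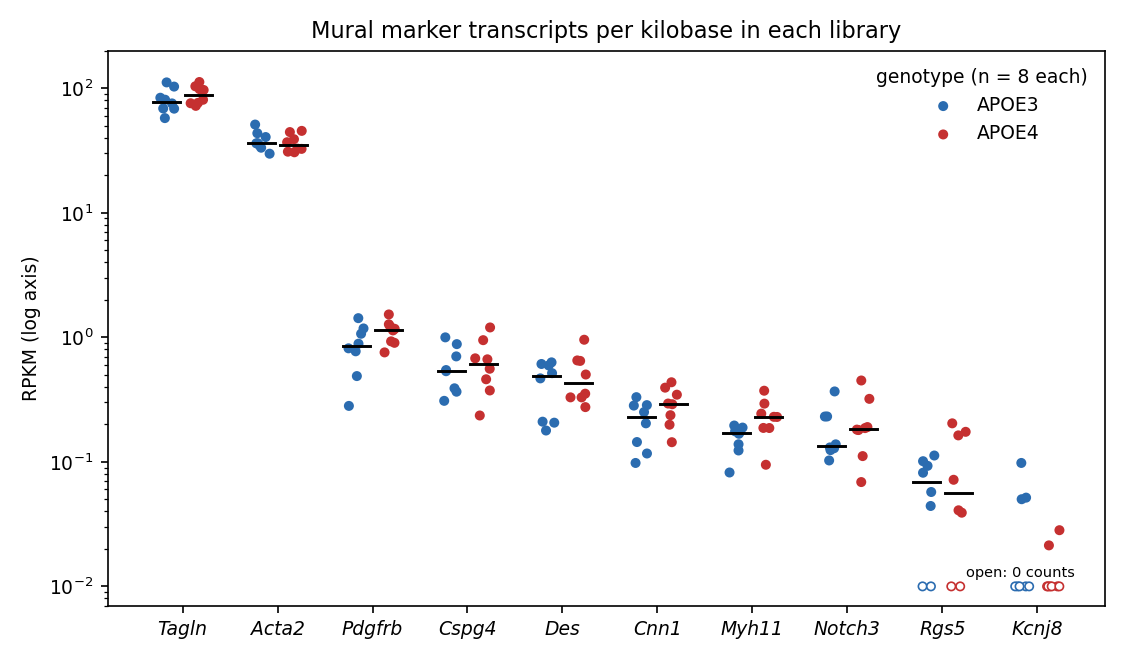
RPKM on a log axis for the 10 mural markers in each of the 16 libraries, ordered by median, with *APOE3* in blue and *APOE4* in red; black lines are medians of 8 libraries and open points at the bottom are libraries with 0 counts. Over all 16 libraries Tagln and Acta2 have medians of 80.9 and 36.2 RPKM and the other markers medians of at most 0.998, and the 2 genotypes overlap for every gene.

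Against 22 brain endothelial markers, measured the same way in the same libraries, the mural markers were a small fraction. Their summed RPKM was 1.46%, 1.96% and 2.88% of the endothelial sum in the lowest, median and highest *APOE3* library, and 1.80%, 2.19% and 2.82% in *APOE4* libraries. Without Tagln and Acta2 the remaining 8 markers came to 0.0191%, 0.0440% and 0.0554% of the endothelial sum in *APOE3* and to 0.0334%, 0.0511% and 0.0706% in *APOE4*. The tight-junction gene Cldn5, a defining endothelial transcript, had a median RPKM 11.4-fold above Tagln and 924-fold above Pdgfrb. All 22 endothelial markers passed the filter on low counts. In the genotype test 3 of these 22 passed, a share near the 12.8% of all genes tested. Emcn was higher with *APOE4* (log2 fold change 0.14, edgeR adjusted p = 0.0106). Egfl7 (-0.16, adjusted p = 0.00835) and Robo4 (-0.12, adjusted p = 0.0214) were lower, and 16 of the 22 estimates were below 0. In bulk RNA, fewer mural cells and less mural RNA per cell cannot be told apart.

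Markers of other cell types were counted as well. Of 12 fibroblast markers 7 passed the filter on low counts, and their summed RPKM ran from 4.27 to 10.9 in *APOE3* and from 5.63 to 15.2 in *APOE4* libraries. Collagen and matrix genes of that list were counted, with 58 to 499 counts for Col1a1, 56 to 775 for Col1a2, 26 to 164 for Col6a3 and 111 to 494 for Fbln1. The defining fibroblast transcripts Dcn, Lum and Dpt did not exceed 10, 3 and 0 counts in any library. Astrocyte markers passed for 2 of 9 genes, microglia and macrophage markers for 3 of 10, oligodendrocyte markers for 4 of 11 and neuron markers for 3 of 9. Gfap reached at most 6 counts, P2ry12 0, Olig2 0 and Snap25 2.

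The scarcest of the 10 markers were Rgs5 and Kcnj8, which in the brain are closely tied to pericytes. Rgs5 (ENSMUSG00000026678.10, GRCm38 chromosome 1 from 169655501 to 169695813), a regulator of G-protein signaling and a leading transcript of brain pericytes, had 0 to 8 counts in *APOE3* libraries with a median of 5, and 0 to 14 in *APOE4* libraries with a median of 4.5. It was at 0 in 4 libraries and at or under 3 counts, the floor used here, in 7. Its counts summed to 35 in *APOE3* and 48 in *APOE4*, and the genotypes overlapped. Kcnj8 (ENSMUSG00000030247.9, chromosome 6 from 142564837 to 142571614), the pore subunit of the vascular KATP channel, had 0 to 4 counts in *APOE3* and 0 to 1 in *APOE4* libraries. It was at 0 in 11 of the 16 libraries, and its counts summed to 8 in *APOE3* and 2 in *APOE4*.

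Neither gene passed the filter on low counts, so neither was tested. When every gene with a count was tested, the adjusted p of Rgs5 was 0.713 and that of Kcnj8 0.338 (edgeR), where 5.74% of 22474 genes passed. The floor of 3 counts was worth 0.161 to 0.236 CPM depending on the library. The size of genotype difference that could be detected at such counts was not tested. The partner of Kcnj8 in the channel, Abcc9, had 1 to 8 counts, and the other KATP subunits Kcnj11 and Abcc8 had 0 in every library.

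The question put to the remaining 8 markers was whether their transcripts differed between genotypes. None of the 8 passed an adjusted p of 0.05 in edgeR's quasi-likelihood test, where 12.8% of all 12481 genes tested did so (6.71% higher and 6.09% lower with *APOE4*). Of the 2072 tested genes with a mean under 4 CPM, where Myh11, Cnn1, Des and Notch3 lay, 4.15% passed. At an unadjusted p under 0.05 there was 1 marker of 8, against 29% of all genes. The estimates were above 0 for 7 of the 8 and below for 1, with a median log2 fold change of 0.22, beside -0.00021 over all genes tested. No marker was without overlap between genotypes, which held for 0.625% of all genes.

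The PDGF receptor and its neighbours on the pericyte surface varied several-fold within a genotype. Pdgfrb (ENSMUSG00000024620.11, chromosome 18 from 61045150 to 61085061), the receptor through which endothelial PDGF-BB recruits pericytes, had 1.54, 4.67 and 7.81 CPM in the lowest, median and highest *APOE3* library and 4.14, 6.32 and 8.36 CPM in *APOE4* libraries. Of the 8 *APOE4* libraries 7 were above the *APOE3* median, with overlap in between. Its mean was 4.74 ± 2.01 CPM (SD, n = 8) in *APOE3* and 6.10 ± 1.34 in *APOE4*, a log2 fold change of 0.36 (SE 0.222, 95% interval -0.11 to 0.82, edgeR adjusted p = 0.304).

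Cspg4 (ENSMUSG00000032911.6, chromosome 9 from 56865033 to 56899870) encodes the proteoglycan NG2, carried by pericytes and by oligodendrocyte precursors. It had 3.68, 6.44 and 11.9 CPM in the lowest, median and highest *APOE3* library and 2.81, 7.31 and 14.3 CPM in *APOE4* libraries, and the *APOE4* range enclosed the *APOE3* range. The log2 fold change was 0.11 (SE 0.282, 95% interval -0.47 to 0.70, edgeR adjusted p = 0.835), and it was below 0 without *APOE4* replicate 37, the library with the highest value.

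Notch3 (ENSMUSG00000038146.7, chromosome 17 from 32120820 to 32166852), the receptor that matures and keeps mural cells, was counted 9 to 54 times per library. Its values were 0.830, 1.09 and 2.97 CPM in the lowest, median and highest *APOE3* library and 0.557, 1.49 and 3.64 CPM in *APOE4* libraries. Both the lowest and the highest library were *APOE4*, and the log2 fold change was 0.19 (SE 0.326, edgeR adjusted p = 0.749). Without *APOE4* replicate 40, the library with the highest value, it was -0.064.

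Des (ENSMUSG00000026208.9, chromosome 1 from 75360329 to 75368579) encodes desmin, the intermediate filament of muscle cells and pericytes. It had 0.670, 1.85 and 2.36 CPM in the lowest, median and highest *APOE3* library and 1.03, 1.61 and 3.59 CPM in *APOE4* libraries. The *APOE4* median was the lower one while the *APOE4* mean was the higher one, 1.90 ± 0.878 against 1.60 ± 0.737 CPM (SD, n = 8). The log2 fold change was 0.25 (SE 0.3, edgeR adjusted p = 0.631). It was 0.04 without *APOE4* replicate 41, the library with the highest value, and 0.15, 0.15 and 0.13 without *APOE3* replicates 26, 31 and 33.

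The contractile pair was measured with the most counts. Acta2 (ENSMUSG00000035783.8, chromosome 19 from 34241090 to 34255590), smooth muscle alpha-actin, had 65.5, 79.4 and 112.2 CPM in the lowest, median and highest *APOE3* library and 67.2, 76.4 and 99.8 CPM in *APOE4* libraries. Its means were 83.8 ± 14.7 and 80.33 ± 13 CPM (SD, n = 8), the single estimate below 0, with a log2 fold change of -0.06 (SE 0.102, 95% interval -0.27 to 0.15, edgeR adjusted p = 0.737). Tagln (ENSMUSG00000032085.5, chromosome 9 from 45929619 to 45936058), transgelin, an actin-binding protein of smooth muscle, had 114.4, 155.5 and 221.5 CPM in *APOE3* and 143.5, 176.6 and 223.0 CPM in *APOE4* libraries. Its log2 fold change was 0.14 (SE 0.119, 95% interval -0.11 to 0.39, edgeR adjusted p = 0.472). Of the 8 *APOE4* libraries, 5 were above the *APOE3* median for Tagln and 4 for Acta2.

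Some reads of Acta2 could belong to other actins. Of the 2146 stretches of 50 bases in its transcripts, 7 (0.326%) are identical in the cytoplasmic actin gene Actg1 and in actin pseudogenes. They form 1 run of 56 bases in the coding sequence, chr19:34243342-34243397 on the minus strand (GRCm38, GENCODE vM21 transcripts), shown because a read of 50 bases inside it cannot be assigned to Acta2:
Acta2 shared stretch: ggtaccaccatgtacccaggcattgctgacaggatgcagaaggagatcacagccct
Myh11 shares 26 such stretches (0.34%) with the non-muscle myosins Myh9 and Myh10 or with Myh9 alone, and Notch3 7 (0.0866%) with Gm30232. The other 7 markers share none. Exons of Tagln overlap those of Pcsk7 and Gm48529 on the opposite strand, exons of Des those of Gm15179 and exons of Notch3 those of Gm17276. Whether counting used the strand is not given in the sources used here, so counts of these overlapping genes are uncertain.

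The late markers of contractile smooth muscle were near the limit of counting. Myh11 (ENSMUSG00000018830.8, chromosome 16 from 14194535 to 14291372), smooth muscle myosin heavy chain, had 10 to 24 counts in *APOE3* and 10 to 42 in *APOE4* libraries. In CPM these were 0.624, 1.30 and 1.49 in the lowest, median and highest *APOE3* library and 0.720, 1.75 and 2.83 in *APOE4* libraries, and 7 of 8 *APOE4* libraries were above the *APOE3* median. Its mean was 1.18 ± 0.292 CPM (SD, n = 8) in *APOE3* and 1.75 ± 0.619 in *APOE4*.

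Myh11 had the largest estimate of the 8 markers, a log2 fold change of 0.56 (SE 0.226, 95% interval 0.09 to 1.03, edgeR unadjusted p = 0.0221, adjusted p = 0.105). Without *APOE4* replicate 36, the lowest *APOE4* library for this gene, the estimate was 0.67 with an edgeR adjusted p of 0.0322, and over the other 27 alternatives the adjusted p ran from 0.0731 to 0.886. Cnn1 (ENSMUSG00000001349.5, chromosome 9 from 22099216 to 22109630), calponin, had 0.268, 0.622 and 0.905 CPM in the lowest, median and highest *APOE3* library and 0.394, 0.799 and 1.19 CPM in *APOE4* libraries. Its counts were 4 to 16 per library, and the log2 fold change was 0.42 (SE 0.278, 95% interval -0.16 to 1.00, edgeR adjusted p = 0.339).

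**Figure D2:**
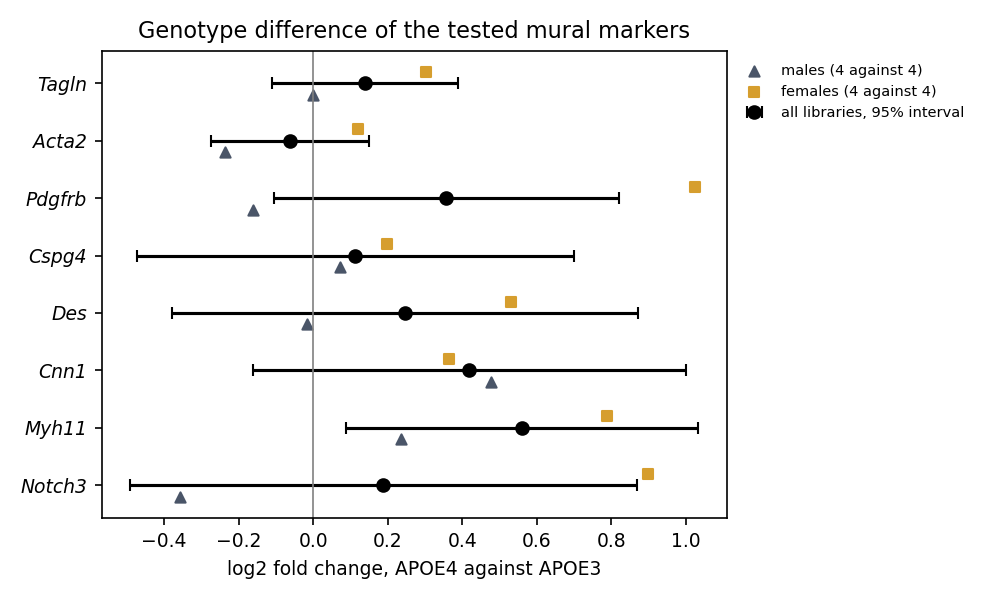
Log2 fold change of *APOE4* against *APOE3* for the 8 tested mural markers; black points with bars are all 16 libraries with 95% intervals, triangles are the 4 against 4 males and squares the 4 against 4 females. All intervals but that of Myh11 (0.09 to 1.03) include 0, and for Pdgfrb the female estimate of 1.02 lies away from the male estimate of -0.16.

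These intervals leave room for changes of moderate size. For Acta2 the interval in folds was 0.827 to 1.11 and for Tagln 0.927 to 1.31, whereas for Notch3 it ran from 0.712 to 1.82 and for Des from 0.769 to 1.83. The highest library exceeded the lowest by 1.71-fold for Acta2 and 1.95-fold for Tagln, and by 4.45-fold for Cnn1 to 6.54-fold for Notch3 among the other 6. The biological coefficient of variation from edgeR was 0.141 for Acta2 and 0.407 for Notch3, at the percentiles 77.8 and 99.2 of all genes tested, whose median was 0.0821.

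*APOE3* replicate 33, a female culture, was the lowest *APOE3* library for Tagln, Acta2, Pdgfrb, Des, Cspg4 and Cnn1. Without it the log2 fold change of Pdgfrb was 0.23 and that of Cnn1 0.32, and the count of markers passing the test was 0. A term for the mean level of 40 cell cycle genes, 37 of which were higher in *APOE4* cells, left a log2 fold change of -0.08 for Cnn1, -0.14 for Tagln, 0.25 for Myh11 and 0.22 for Pdgfrb. With that term 0 of all genes tested passed. The part of the cell cycle level in the marker estimates was not tested.

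Male and female cultures were compared in a fit with 4 groups. Pdgfrb had 4.87, 6.15 and 7.81 CPM in the lowest, median and highest *APOE3* male library and 4.14, 5.75 and 6.69 in *APOE4* males. In females it had 1.54, 3.45 and 4.47 CPM in *APOE3* and 4.95, 6.59 and 8.36 in *APOE4*, without overlap between the 4 and 4 libraries. Myh11 was the other marker without overlap in females, 2 of 8 against 9.34% of all genes, and in males it was 0 of 8 against 7.98%. In the fit with 4 groups no gene passed the genotype test within either sex (0%), and in a separate fit of females alone 2 of 12504 genes did, no marker among them. The log2 fold change was -0.16 (SE 0.244) in males and 1.02 (SE 0.257, edgeR adjusted p = 0.0683) in females.

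The difference between these effects for Pdgfrb was 1.19 (edgeR unadjusted p = 0.00356, adjusted p = 1). It did not pass the adjustment, and neither did that of any other gene tested (percent called 0, with 2.76% of genes at an unadjusted p under 0.05). Leaving out each library in turn moved it between 0.96 and 1.38. For Notch3 the female effect was 0.90 (SE 0.447) and the male effect -0.36 (SE 0.419), a difference of 1.26 (edgeR unadjusted p = 0.0551, adjusted p = 1). The 4 *APOE3* female libraries held Notch3 within 0.83 and 1.06 CPM, the narrowest of the 4 groups.

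By sex alone, Cspg4 had the clearest gap, with 4.46, 9.45 and 14.3 CPM in the lowest, median and highest male library and 2.81, 5.93 and 8.09 CPM in female libraries. The female against male log2 difference was -0.69 (SE 0.252, edgeR unadjusted p = 0.0132, adjusted p = 1). No marker passed for sex, where 9 of all genes (0.0721%) did, and 4.26% of genes had an unadjusted p under 0.05. Tagln was at 182.4 ± 33.2 CPM in males and 157.0 ± 29.7 in females (SD, n = 8), with an edgeR unadjusted p of 0.0532.

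**Figure D3:**
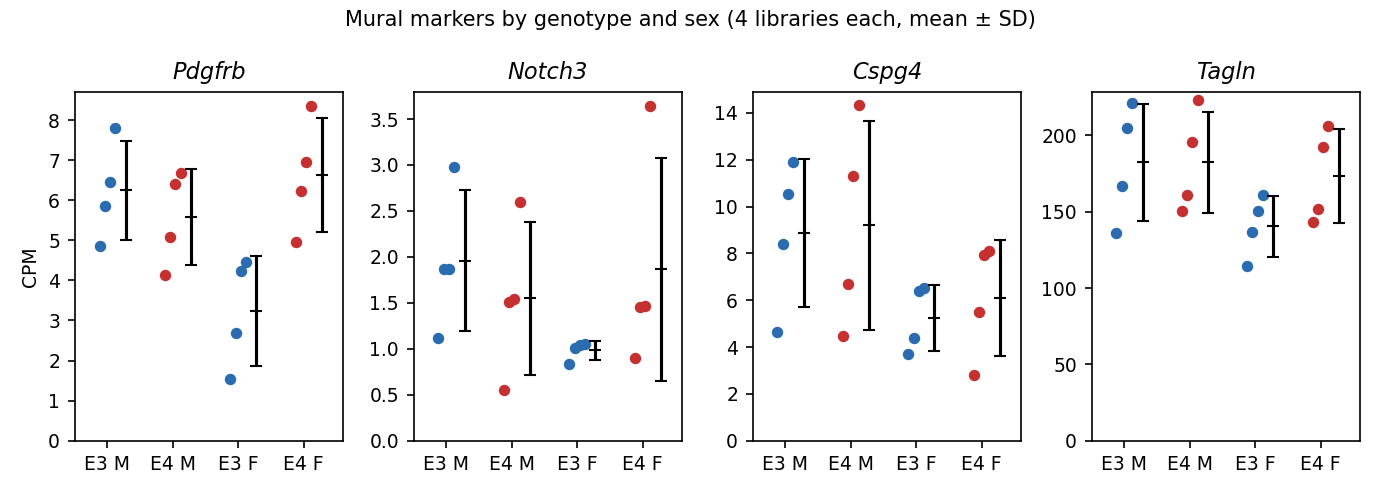
CPM of Pdgfrb, Notch3, Cspg4 and Tagln in *APOE3* (E3, blue) and *APOE4* (E4, red) cultures from males (M) and females (F), 4 libraries each, with black bars for mean ± SD. For Pdgfrb the *APOE3* female libraries (1.54 to 4.47 CPM) lie below the *APOE4* female libraries (4.95 to 8.36 CPM), while the male groups overlap.

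Whether the 8 markers moved together from culture to culture was examined next. Deviations of log2 CPM from the genotype mean were correlated over the 16 libraries for all 28 pairs. Of these, 27 had a Pearson's r above 0, and 2 passed an adjusted p of 0.05 in permutation tests. Acta2 and Tagln were the closest pair, with r = 0.789 (permutation p = 0.00035, adjusted p = 0.0098) and Spearman's rho = 0.729 (permutation p = 0.00212, adjusted p = 0.0297). Without the 2 libraries farthest from the Acta2 median r was 0.736 with an adjusted permutation p of 0.0808, which missed 0.05. The call was also lost without *APOE3* replicate 25, the library highest in Acta2 (r = 0.714, adjusted permutation p = 0.0714). Within genotypes r was 0.856 in *APOE3* and 0.704 in *APOE4*.

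Pdgfrb and Des were the second pair, with r = 0.662 (permutation p = 0.00345, adjusted p = 0.0483), rho = 0.624 (adjusted p = 0.0815) and r = 0.533 without the 2 farthest libraries. Its adjusted p missed 0.05 by rho, and the pair lost its call in 10 of the 16 sets that left out 1 library. Pdgfrb and Notch3 had r = 0.627 (permutation p = 0.00938, adjusted p = 0.068) but passed by rank, with rho = 0.759 (adjusted p = 0.0297). Among the markers, Pdgfrb had its highest r with Des and Notch3. Its r was 0.375 with Tagln, 0.371 with Acta2 and 0.361 with Cspg4, which is also a pericyte gene. With the 6 tested other pericyte markers its median r was 0.064, from -0.128 to 0.308. The difference between such values of r was not tested. Myh11 had an r between -0.108 and 0.230 with the other markers, the contractile pair included. Without the 2 libraries farthest from the Myh11 median its r was 0.669 with Notch3, 0.484 with Des and 0.333 with Cnn1. For the other pairs of Myh11, the 2 libraries farthest from the median of the partner gene were left out. Its r was then 0.352 with Tagln, 0.27 with Acta2, 0.0798 with Pdgfrb and -0.0506 with Cspg4. Cspg4 had r = 0.0256 with Notch3 and 0.171 with Des.

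**Figure D4:**
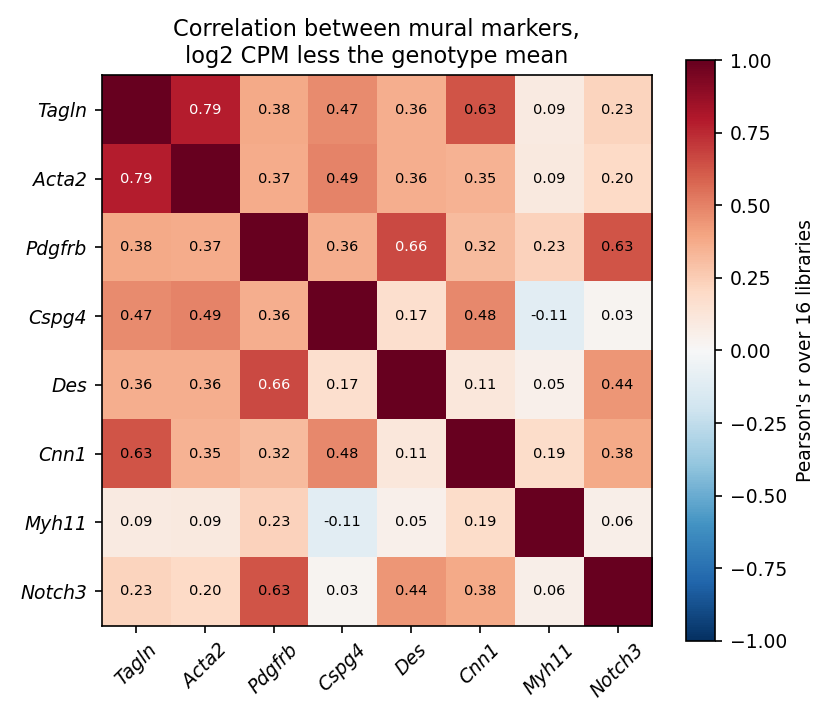
Pearson's r over 16 libraries for each pair of the 8 tested mural markers, from log2 CPM less the genotype mean, on a colour scale from -1 (blue) to 1 (red). Acta2 with Tagln (0.79) and Pdgfrb with Des (0.66) and Notch3 (0.63) stand out, and Myh11 is pale throughout before libraries are left out.

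The genes most like each marker were taken as the 5 with the highest r among the other 12480 genes tested, over the same 16 libraries. Tagln was most like Actn1 (r = 0.912, rho = 0.894), Myl9 (r = 0.903, rho = 0.921), Anxa2 (0.88), Cald1 (0.865) and Cnn2 (0.864), where the bare values are r. Of these 5, 4 were on the list of contractile genes: Actn1 for alpha-actinin, Myl9 for myosin regulatory light chain, Cald1 for caldesmon and Cnn2 for a calponin. Acta2 was most like Myl9 (r = 0.844, rho = 0.776), and Tagln came next. Myl9 held with Tagln at r = 0.854 and with Acta2 at r = 0.817 after the 2 farthest libraries were left out.

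Cspg4 went with other genes. It was most like Axl (r = 0.953, rho = 0.903), a receptor tyrosine kinase, Cd44 (r = 0.95), a hyaluronan receptor, Lox (r = 0.947), lysyl oxidase of the collagen matrix, Lrp1 (r = 0.945), an endocytic apoE receptor, and Pkp1 (r = 0.943), a plakophilin. For Cspg4, 22 genes had an r above 0.9, against 2 for Tagln and 0 for each of the other 6 markers. Among the fibroblast markers, Cspg4 had r = 0.942 (rho = 0.903) with Col1a2, 0.869 with Col1a1 and 0.821 with Col6a3. Over the 7 tested, r ran from 0.0439 to 0.942 with a median of 0.732. The median r of Cspg4 with the 6 tested other pericyte markers was 0.16. Those of the other tested mural markers ran from 0.064 for Pdgfrb to 0.195 for Des, so this low value was not particular to Cspg4.

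The relation of Cspg4 to Col1a2 was seen in both genotypes. With Col1a2 its r was 0.874 in *APOE3*, 0.987 in *APOE4*, 0.936 after centring by genotype and sex, and 0.901 without the 2 farthest libraries. The median r of Tagln with the fibroblast markers was 0.388 and that of Pdgfrb 0.0871. These values describe libraries that also share depth and culture, and carry no test.

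**Figure D5:**
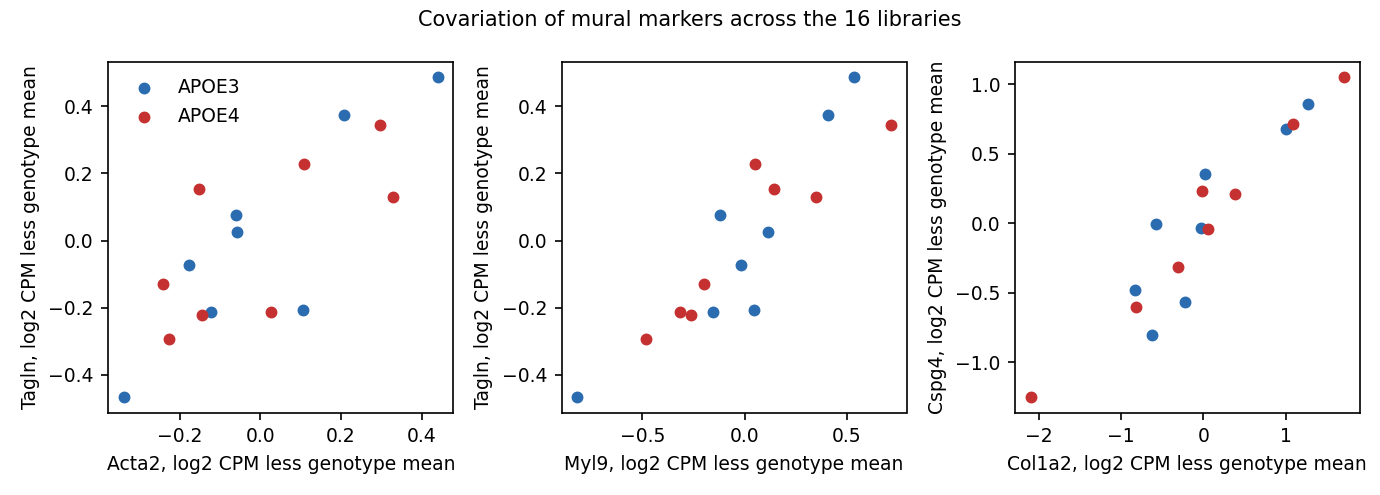
Log2 CPM less the genotype mean in the 16 libraries (blue *APOE3*, red *APOE4*) for Tagln against Acta2, Tagln against Myl9 and Cspg4 against Col1a2. Points rise together in all 3 panels, with r = 0.789, 0.903 and 0.942.

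Nearest genes were also found for the sparse markers. Pdgfrb was most like Rundc3b with the highest r at 0.78, and Notch3 like Wars at 0.782. Myh11 had Gstz1 at 0.874, Des had Plscr4 at 0.851 and Cnn1 had B9d2 at 0.821. None of these 5 was on a marker list, and at such counts a correlation carries counting noise.

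Tagln and Cnn1 also correlated with the cell cycle genes, with a median r of 0.514 and 0.51 over the 40. All 40 were above 0 for each gene. The 40 values come from the same 16 libraries, so they are not independent, and they carry no test. Myh11 had a median of 0.372, also with 40 above 0, and Pdgfrb 0.17 with 39 above 0. The medians of Notch3, Acta2, Cspg4 and Des were 0.101, 0.0725, -0.0303 and -0.0528. Against the 22 endothelial markers the median r of Tagln was -0.4, with 6 of the 22 above 0. Values ran from -0.852 for Fli1, an endothelial transcription factor, to 0.441. The 3 markers Tagln, Acta2 and Cnn1 are read in part through the CArG box, the element bound by serum response factor, so promoters were scanned for it. Over 250 bases before the RefSeq start, both strands, a CArG box lay in 482 of 32851 promoters (1.47%), and the form with 1 G or C allowed in its core lay in 2823 (8.59%).

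Promoters were given for 7 of the 10 markers, Acta2, Cspg4, Rgs5, Cnn1, Des, Kcnj8 and Notch3, and not for Tagln, Myh11 and Pdgfrb. A strict CArG box lay in 0 of the 7. Acta2 alone held the relaxed form, at 84 and 34 bases before its start, and these stretches are shown because Acta2 belongs to the pair that moved together. They lie on the minus strand of GRCm38.p6 at chr19:34255438-34255467 and chr19:34255388-34255417, with the element in capitals:
Acta2 distal element: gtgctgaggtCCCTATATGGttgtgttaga
Acta2 proximal element: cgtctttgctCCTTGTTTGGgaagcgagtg
The letters TGGGAA, the core bound by RBPJ in the Notch pathway, lay on either strand in 7094 promoters (21.6%) and in 1 of the 7 marker promoters, that of Acta2. A match is a run of letters and was not tested for binding.

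Srf, serum response factor itself, was counted at up to 2165 per library, with a log2 fold change of -0.01 (SE 0.0595, edgeR adjusted p = 0.924), and its cofactors Mrtfa and Mrtfb passed no test. Myocd, the cofactor restricted to muscle, had 0 to 10 counts and was not tested. Of 18 regulators of mural cells 14 were tested, of which 1 was higher and 1 lower with *APOE4*, 2 of 14 beside 12.8% of all genes, a share near that background. Rbpj, the Notch effector, was higher (log2 fold change 0.17, SE 0.0446, edgeR adjusted p = 0.0212). Klf4, which represses contractile genes in smooth muscle, was lower (log2 fold change -0.39, SE 0.0955, edgeR adjusted p = 0.0135). It had 540 to 1354 counts per library, and which cells held its transcripts was not tested. With the cell cycle term its log2 fold change was -0.03 and with a term for the endothelial marker level -0.15. With either term 0 of all genes tested passed, so the lost call is not particular to Klf4. The Notch target Heyl, with 7 to 51 counts, had a log2 fold change of 0.62 (SE 0.338, edgeR adjusted p = 0.237) and the highest r with Pdgfrb of the listed genes, 0.664.

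Other pericyte markers ranged from abundant to absent. Mcam, which endothelial cells also carry, was at 299.0 ± 44.7 CPM in *APOE3* and 230.3 ± 65.6 CPM in *APOE4* (SD, n = 8), and Cd248 had 105 to 265 counts per library. Of 14, 6 were tested and 4 never exceeded 3 counts in a library, namely Atp13a5, Higd1b, Slc6a20a and P2ry14, each with at most 1 count. Art3, with 7 to 30 counts, was higher with *APOE4* (log2 fold change 0.79, SE 0.233, edgeR adjusted p = 0.0321), and leaving out 1 library at a time ended its call in 8 of 16 cases. The count of 1 of 6 stands beside 12.8% of all genes, and the other 5 did not pass. Cd248 (endosialin) had a log2 fold change of 0.36, Anpep (CD13) 0.43, Zic1 0.69 and Steap4 0.94, while Mcam had -0.38. The median over the 6 was 0.56.

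Of 20 other contractile genes 16 were tested. Mylk, the kinase of the myosin light chain, was higher (log2 fold change 0.11, SE 0.0372, edgeR adjusted p = 0.0493), and its call ended in 14 of 16 cases when 1 library was left out. Genes that moved with Tagln across libraries did not pass: Cald1 had a log2 fold change of 0.41 (edgeR adjusted p = 0.051), Myl9 0.33 (adjusted p = 0.213) and Actn1 0.07 (adjusted p = 0.557). Counts on this list spread widely. Pln was at 0 counts in every library, Ldb3 at most at 2, Casq2 at most at 3 and Actg2 at most at 8. Lmod1 had 30 to 84 counts, Synpo2 up to 3140, Actn1 up to 16428 and Flna, the highest of the list, up to 38876.

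The list of signals to mural cells held ligands and receptors, not those of endothelial cells alone. Angpt1, with at most 5 counts, and Ednra, with at most 11, were not tested, and Pdgfc had 2 to 27. Of 28 genes for PDGF, Notch and TGF-beta signaling 26 were tested, 1 higher and 1 lower, 2 of 26 beside 12.8% of all genes. Pdgfb, the ligand of PDGF receptor beta, reached 16161 counts in a library where Pdgfrb reached at most 128 in any, and had a log2 fold change of -0.08 (SE 0.0398, edgeR adjusted p = 0.168). Pdgfd, another ligand of that receptor, was higher (log2 fold change 0.17, SE 0.0546, edgeR adjusted p = 0.0415). Tgfbr3, a co-receptor for TGF-beta, was lower (log2 fold change -0.21, SE 0.0663, edgeR adjusted p = 0.0421). With 1 library left out at a time, the call of Pdgfd ended in 10 of 16 cases and that of Tgfbr3 in 9.

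The Notch ligand Jag1, which endothelial cells present to mural NOTCH3, had a log2 fold change of 0.11 (edgeR adjusted p = 0.117), and Dll4 had -0.05 (adjusted p = 0.685). Of the tested markers of other cells, 1 of 7 fibroblast and 1 of 4 oligodendrocyte genes passed, beside 12.8% of all genes. Of the 2 astrocyte, 3 microglia and macrophage and 3 neuron genes tested, 0 passed. Fbln1 of the fibroblast list was higher (log2 fold change 0.90, SE 0.159, edgeR adjusted p = 0.00542). Col1a1 and Col1a2, which ran with Cspg4, had -0.02 and 0.33 without passing. With the cell cycle term Fbln1 was at 0.28 and with the endothelial term at 0.53, where 0 of all genes tested passed with either term. Cnp of the oligodendrocyte list was higher as well (log2 fold change 0.23, edgeR adjusted p = 0.0143), and was at 0.05 with the cell cycle term and 0.13 with the endothelial term. The part of other cell types in the marker levels was not tested.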

How the data were processed

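The authors deposited 1 table of raw counts per gene for the 16 libraries, without normalization. The submitters' processing notes name STAR, featureCounts, mm10 and hg38; versions, strand setting and handling of multimapped reads are not given in the sources used here. Identifiers were matched to GENCODE vM21 (38872 of 39057), whose coordinates are printed and whose release differs from that of the table. Genes passing filterByExpr by genotype (12481) were tested for genotype with TMM normalization and edgeR 4.0.16's quasi-likelihood test in R 4.3.3, with Benjamini-Hochberg adjustment over all of them; limma 3.58.1, DESeq2 1.42.0 and sva 3.50.0 served alternatives. Log2 CPM used a prior count of 2, RPKM the union of exons, and each of the 28 pairs of markers 100000 permutations, two-sided. Named genes are all markers, listed genes that passed, and the 5 genes with the highest r; other listed genes were named after their values were seen. The markers and lists were chosen with earlier results of these data known. Libraries were made with 17 PCR cycles and no molecular identifiers, so precision from depth covers counting error only. Fits were tested on simulated data. The result of 1 listed gene is not reported here.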

Additional observations from a re-analysis of the deposited data

How the results depend on the processing

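The number of mural markers passing the genotype test was 0 in 27 of 28 alternatives and 0 to 1 when each library was left out in turn, the 1 being Myh11 without *APOE4* replicate 36. A term for the cell cycle or the endothelial marker level left 0 of all genes passing. Signs turned in these cases, all far from the threshold: with the cell cycle term Cnn1 was -0.0753, Tagln -0.144 and Tgfbr3 0.0179; with the endothelial term Cnn1 was -0.0521, Tagln -0.127 and Cspg4 -0.132; with limma voom Cspg4 was -0.00516; in males alone Des was -0.0163, Tagln -9.88e-05, Notch3 -0.357 and Pdgfrb -0.162; in females alone Acta2 was 0.122. Leaving out 1 library gave Cspg4 -0.0846 (without *APOE4* replicate 37) to 0.263, Notch3 -0.064 (without *APOE4* replicate 40) to 0.417 and Acta2 -0.112 to 0.00957 (without *APOE3* replicate 25). The cause was not tested. The number of correlated pairs, 2, was 0 without the 2 farthest libraries and 0 to 3 when each library was left out, with 0 without *APOE3* replicate 25 and 1 without *APOE3* replicates 27, 28, 31 and 32 and *APOE4* replicates 35, 36, 38 and 39. The mural share of the endothelial sum, a mean of 2.05% in *APOE3* and 2.24% in *APOE4* by RPKM, was 1.10% and 1.18% by counts, where longer genes weigh more. Counts under 20 in Cnn1, Rgs5 and Kcnj8 limit what depth can show. No paired analysis was possible because the genotypes share no replicate numbers.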
